A study of Mus musculus with 6 samples.

Results

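The genes described here encode the protein subunits of oxidative phosphorylation, the electron transport chain and ATP synthase of the inner mitochondrial membrane. They were chosen by symbol: genes measured by a probe set with exactly 1 platform symbol that starts with Nduf, Sdha to Sdhd, Uqcr, Cox4 to Cox8 or Atp5, plus Cyc1 and Cycs. This gave 95 of the 19938 genes measured in this way, on 123 probe sets, with the brightest probe set taken for each gene. By complex, 34 members belong to complex I, 4 to complex II, 9 to complex III, 19 to complex IV and 17 to complex V. Cytochrome c (Cycs) stands alone, and 11 members are assembly factors that share the prefixes (Ndufaf and Sdhaf). Ndufa4 and its paralog Ndufa4l2 carry complex I names but were counted with complex IV, where the Ndufa4 protein is found. The subunits encoded in mitochondrial DNA were not analysed here, nor were Ndufb4 and Cox7c.

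Complex I takes electrons from NADH and complex II from succinate, and both pass them to coenzyme Q. Complex III hands them on to cytochrome c, and complex IV passes them to oxygen. Complexes I, III and IV pump protons, and complex V, the ATP synthase, lets the protons back through its membrane part to drive ATP formation in its head. Neutrophils rely largely on glycolysis and hold few mitochondria, while macrophages and monocytes respire more, and mTOR, the kinase that rapamycin inhibits, is known to promote the synthesis of mitochondrial proteins.

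RNA was measured on 1 array per mouse in 3 mice injected with PBS and 3 injected with rapamycin at 1.5 mg/kg, on alternate days until day 10 after the transplantation. All 6 were irradiated B6D2F1/J mice given B6 marrow freed of T cells, and spleen cells of B6 origin were added or not, without the labels saying for which mice. Spleen cells were sorted with beads against CD11b and are labelled myeloid-derived suppressor cells. The CD11b gene Itgam and the neutrophil genes Ly6g, S100a8 and S100a9 lay at or above percentile 99.5 of all genes, so the myeloid label was met. In such bulk samples, fewer cells of a type and less RNA per cell cannot be told apart. Replicates are separate mice per the labels.

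With rapamycin, Cox7a2l, Atp5md, Uqcrh, Sdhc, Cox4i1 and 7 other members were higher by up to 1.40-fold. Ndufs5 and Ndufs1 of complex I and Atp5d of the ATP synthase were lower by up to 1.34-fold. Of the 91 members bright enough to test, 12 rose and 3 fell at an adjusted p under 0.05 over all 13965 genes tested with limma, and the other 76 did not pass. The members called make up 16.5%, against 11.3% of all genes tested (4.42% higher and 6.92% lower). Of all genes tested, 617 rose and 967 fell, so that 61.0% of the calls were lower. With the array medians aligned the split over all genes turned to 875 higher and 707 lower (44.7% lower), and that of the members was 14 and 3. The median log2 change of the 91 members was 0.03, beside -0.02 for all genes tested. The groups did not overlap for 40 members (44.0%), 28 above and 12 below, against 32.0% of all genes tested. The counts varied when 1 array was left out, in fits with fewer samples and so less power. Without PBS replicate 2 the members gave 1 higher (Atp5md) and 0 lower, and all genes gave 113 calls in place of 1584. The log2 changes of Cox7a2l, Cox4i1, Atp5g3 and Atp5d in that fit were 0.51, 0.45, 0.16 and -0.28. With all arrays they were 0.49, 0.44, 0.18 and -0.28. Leaving out PBS replicate 1 gave 5 members higher and 2 lower, and PBS replicate 3 gave 6 and 2. For the rapamycin mice, the fit lacking replicate 1 gave 4 and 2, that lacking replicate 2 gave 7 and 2, and that lacking replicate 3 gave 10 and 5. Cox4i1, Sdhc, Uqcrh and Ndufs5 lost their calls only in the fit that lacked PBS replicate 2, at adjusted p of 0.0564, 0.0505, 0.0504 and 0.0502. Cox7a2l and Ndufs1 lost theirs there (0.0582 and 0.0653) and in the fit that lacked rapamycin replicate 1 (0.0513 and 0.055). Ndufa1, Ndufb11 and Atp5d were called in 2 of the 6 such fits, Ndufa3, Cox6c and Atp5mpl in 1, and Uqcrb and Atp5g3 in 0. At an unadjusted p under 0.05 there were 32 members (35.2%) and 28.2% of all genes.

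**Figure D1:**
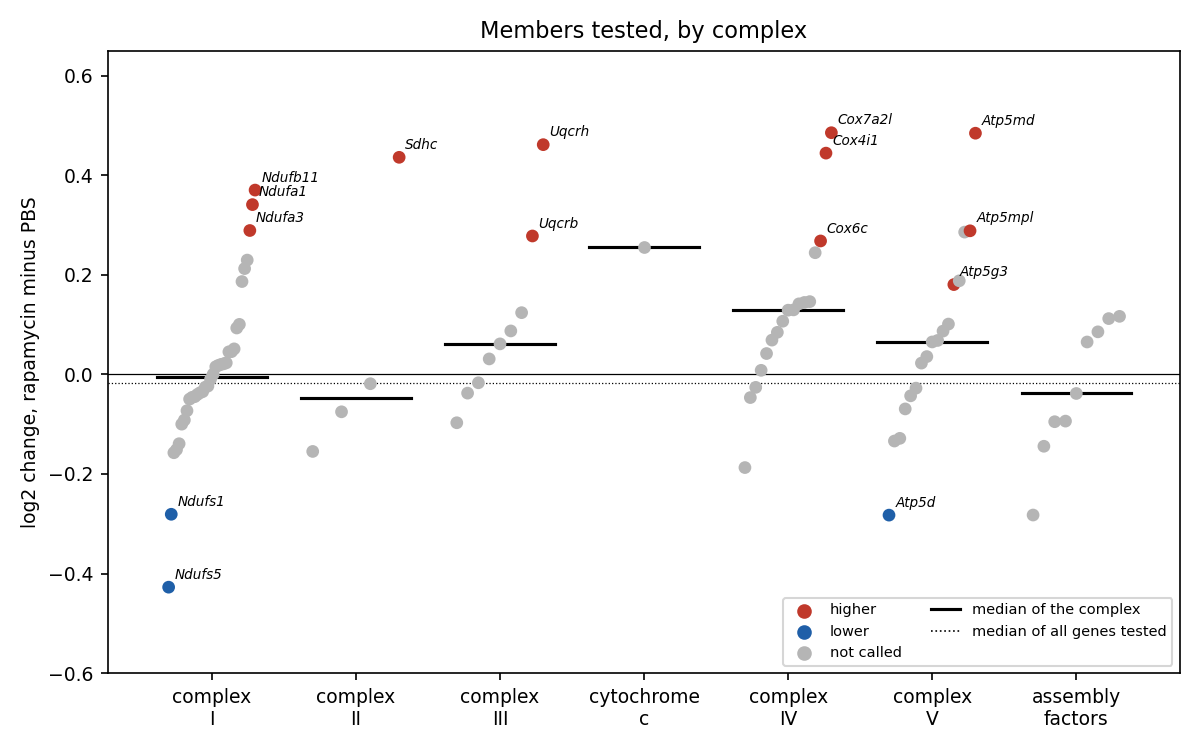
Log2 change (rapamycin minus PBS) of the 91 members tested, 1 point per gene, arranged by complex and ordered by size within it. Red and blue points passed the test, bars mark each complex's median and the dotted line the median of all genes tested; complex IV sits mostly above 0 with a median of 0.13, and complex I is centred on 0.

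By complex, the median log2 change was described without a test. Complex IV stood highest at 0.13 (14 of 17 tested members positive), followed by complex V at 0.07 (11 of 17) and complex III at 0.06 (6 of 9). Complex I stood at 0.00 with 17 members on each side, and complex II at -0.05 with 1 of 4 positive. By mouse, the median difference from the PBS mean over complex IV members was -0.02, 0.01 and 0.01 with PBS and 0.11, 0.13 and 0.10 with rapamycin. Over complex V it was 0.01, 0.00 and -0.01 with PBS and 0.08, 0.05 and 0.05 with rapamycin. Over complex III it was 0.01, 0.00 and -0.02 with PBS and 0.08, 0.01 and 0.06 with rapamycin. In complexes III, IV and V every rapamycin mouse lay above every PBS mouse, in complex III by 0.0092 against 0.0080 at the nearest. In complexes I and II the mice of the groups overlapped. Medians over all genes tested separated too, with rapamycin lower, at -0.0177 to -0.0068 against -0.0036 to 0.0038 with PBS. So did the assembly factors among the members, at -0.0742 to -0.0187 against -0.0064 to 0.02. Full separation was thus not particular to complexes III, IV and V. These by-mouse values were not adjusted for the array medians over the genes tested. Those medians were 6.7800 to 6.8018 with PBS and 6.7315 to 6.7754 with rapamycin, and their difference enters every by-mouse value. Whether the groups separate or overlap with aligned medians was not tested. With Ndufa4 and Ndufa4l2 counted by name, the medians were 0.00 for complex I and 0.13 for complex IV.

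**Figure D2:**
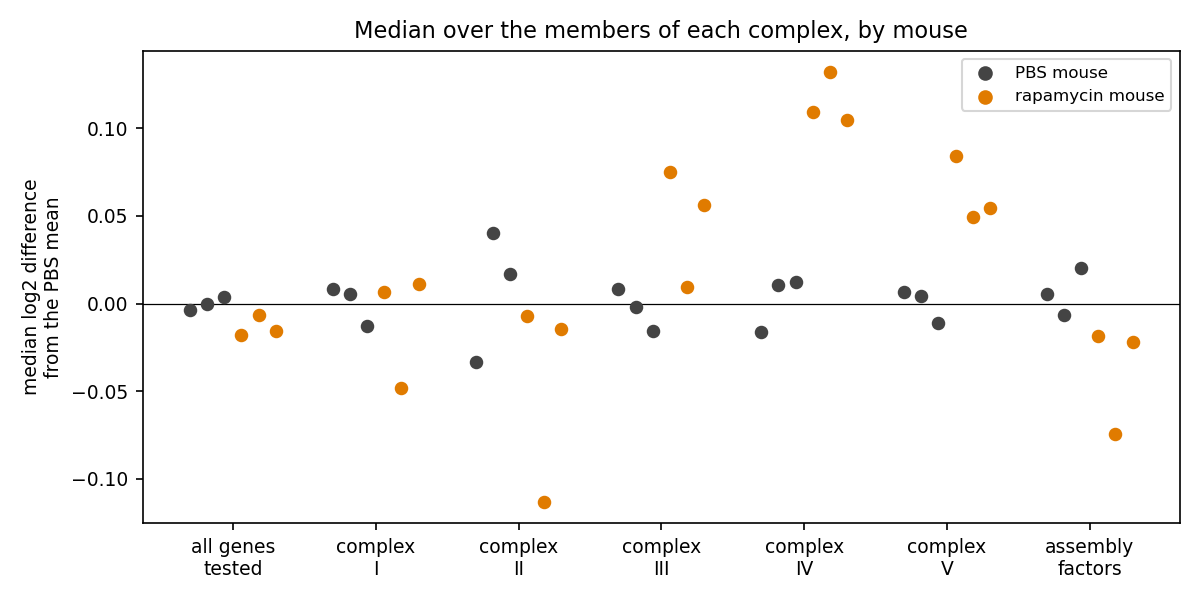
Median over the tested members of each complex of the log2 difference from the gene's PBS mean, 1 point per mouse (3 PBS in grey, 3 rapamycin in orange), with all genes tested and the assembly factors beside them. The rapamycin mice lie above the PBS mice for complexes III, IV and V, at 0.01 to 0.08 in complex III and at 0.05 to 0.13 in complexes IV and V. For all genes tested and for the assembly factors the rapamycin mice lie below the PBS mice. The values are not adjusted for the array medians.

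Nuclear genes of the respiratory chain are known to share promoter sites for the factor NRF1 and for GABP, an ETS factor made of Gabpa and Gabpb1, and some for YY1. Windows from 250 bases before to 50 after the start, from RefSeq's mouse assembly GRCm38.p6, were at hand for 78 of the 95 members. The ETS motif CCGGAAG, searched on both strands, stood in the windows of 21 of them (26.9%) and of 9.93% of 27025 genes. These 27025 are the genes with a window, more than the 19938 measured here, and were not matched to the members in expression level. Whether the motifs are as frequent in other bright genes was not tested. The core of the NRF1 site, CGCATGCG, which is its own reverse complement, stood in 12 (15.4%) and in 2.07% of genes, and the YY1 motif AAGATGGC in 10 (12.8%) and in 3.19%. In the sequences printed here no match overlaps another. Of the members that rose, 7 had a window: Uqcrh and Atp5md held the ETS motif, Ndufa3 the YY1 motif and 0 of the 7 the NRF1 motif. Of those that fell, 2 had a window, with 0 matches.

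The 250 bases before the start are shown for 3 members: Uqcrh, which rose and holds the ETS motif close to its start; Cox6a1, which holds both the NRF1 and the ETS motif and did not pass the test; and Ndufs5, which fell and has no match. Capitals mark matches to the motifs, here read on the gene's strand 5′ to 3′, and all 3 genes lie on the minus strand. Uqcrh is at chr4:116075071-116075320, Cox6a1 at chr5:115348959-115349208 and Ndufs5 at chr4:123718187-123718436.
Uqcrh: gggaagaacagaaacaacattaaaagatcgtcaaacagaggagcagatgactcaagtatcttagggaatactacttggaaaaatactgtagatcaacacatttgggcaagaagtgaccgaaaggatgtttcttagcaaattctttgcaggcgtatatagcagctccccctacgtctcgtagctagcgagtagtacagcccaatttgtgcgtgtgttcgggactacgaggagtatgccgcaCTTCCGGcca
Cox6a1: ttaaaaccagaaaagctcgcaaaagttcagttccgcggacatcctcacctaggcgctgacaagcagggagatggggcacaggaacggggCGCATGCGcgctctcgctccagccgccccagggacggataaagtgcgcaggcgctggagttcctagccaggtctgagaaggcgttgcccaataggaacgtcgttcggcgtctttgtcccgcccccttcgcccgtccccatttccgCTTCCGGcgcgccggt
Ndufs5: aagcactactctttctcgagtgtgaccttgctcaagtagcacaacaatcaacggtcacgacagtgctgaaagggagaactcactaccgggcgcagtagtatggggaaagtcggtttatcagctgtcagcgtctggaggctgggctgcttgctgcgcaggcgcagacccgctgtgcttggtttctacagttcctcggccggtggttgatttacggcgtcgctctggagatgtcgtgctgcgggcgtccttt
The first base of the match in Uqcrh lies 10 bases before the start. A match says only that these letters are in the window.

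In complex I, 3 of 34 members rose, 2 fell and the remaining 29 were not called. The share called was 14.7%, against 11.3% of all genes tested. The groups did not overlap for 26.5% of the members, against 32.0% of all genes tested. The 2 that fell are parts of its matrix and intermembrane sides. Ndufs5, a small accessory subunit on the intermembrane side, stood at 8.13, 8.32 and 8.20 (log2) in the PBS mice and at 7.76, 7.78 and 7.82 in the rapamycin mice. Every rapamycin value lay below every PBS value, with a log2 change of -0.43 ± 0.06 (SE, n = 3 each; limma adjusted p 0.00894). Ndufs1, the largest core subunit, which carries iron-sulfur clusters, stood at 8.35, 8.29 and 8.23 with PBS and at 8.01 ± 0.01 (mean ± SD) with rapamycin. It fell by 0.28 ± 0.05 (limma adjusted p 0.0143), and the groups did not overlap.

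The complex I members that rose are small accessory subunits of the membrane arm. Ndufb11 stood at 8.39, 8.46 and 8.56 with PBS and at 8.80, 8.76 and 8.96 with rapamycin, a rise of 0.37 ± 0.07 (limma adjusted p 0.0214). Ndufa1, a single-span membrane protein, stood at 8.33, 8.37 and 8.50 with PBS and at 8.76, 8.77 and 8.69 with rapamycin, a rise of 0.34 ± 0.06 (adjusted p 0.0155 with limma). Ndufa3 went from 9.96 ± 0.03 to 10.25 ± 0.11 (mean ± SD), a rise of 0.29 ± 0.06 (limma adjusted p 0.0312). In all 3 the groups did not overlap. The other 29 ranged from -0.16 (Ndufa11) to 0.23 (Ndufb2). Among the 6 core subunits tested, Ndufs1 alone was called, and the others, Ndufv1, Ndufv2, Ndufs3, Ndufs7 and Ndufs8, lay between -0.05 and 0.02. Ndufv1, which binds NADH, stood at 8.10 ± 0.06 with PBS and at 8.05 ± 0.10 with rapamycin.

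In complex II, the membrane anchor Sdhc rose (25.0% called, against 11.3% of all genes tested) and the other 3 subunits did not pass the test. Sdhc stood at 8.79, 8.92 and 8.96 with PBS and at 9.37, 9.33 and 9.28 with rapamycin, a rise of 0.44 ± 0.06 (limma adjusted p 0.00819). The gap between the groups was larger than the range within either. Sdha, the flavoprotein that oxidises succinate, stood at 9.92, 9.97 and 9.84 with PBS and at 9.74, 9.76 and 9.76 with rapamycin. Its difference of -0.15 ± 0.05 did not pass the test (limma adjusted p 0.0817), though the groups did not overlap. After quantile normalization again Sdha was called at -0.18 (adjusted p 0.0475). Sdhb, the iron-sulfur subunit, differed by -0.02 ± 0.05 and Sdhd, the other anchor, by -0.08 ± 0.05, with overlapping groups in both.

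In complex III, 2 of 9 subunits rose and 0 fell (22.2% called, against 11.3% of all genes tested). Uqcrh, the acidic hinge protein that helps cytochrome c to dock, stood at 9.81, 9.70 and 9.69 with PBS and at 10.25, 10.14 and 10.20 with rapamycin. The rise of 0.46 ± 0.06 had the lowest adjusted p among the members (0.00754 with limma). Uqcrb, a small subunit near the site where coenzyme Q binds, stood at 10.43, 10.51 and 10.32 with PBS and at 10.74, 10.70 and 10.65 with rapamycin, a rise of 0.28 ± 0.06 (limma adjusted p 0.0319). Both are small subunits, and the groups of neither overlapped. The catalytic subunits did not pass the test: cytochrome c1 (Cyc1) differed by 0.06 ± 0.05 and the Rieske protein Uqcrfs1 by 0.03 ± 0.05. The core protein Uqcrc1 differed by -0.10 ± 0.05, with every rapamycin mouse below every PBS mouse, and Uqcrc2 by -0.04 ± 0.05.

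Cytochrome c itself, Cycs, stood at 10.13, 10.12 and 9.79 with PBS and at 10.31, 10.34 and 10.15 with rapamycin. The groups did not overlap, but PBS replicate 3 lay apart from the other two, and the difference of 0.26 ± 0.10 did not pass the test (limma adjusted p 0.152). Of its 3 probe sets, the 2 bright ones differed by 0.26 and 0.22, and a dim one, at 4.50, by -0.36 (adjusted p 0.0141 in a fit of all probe sets). The 3 probe sets thus disagree in direction.

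**Figure D3:**
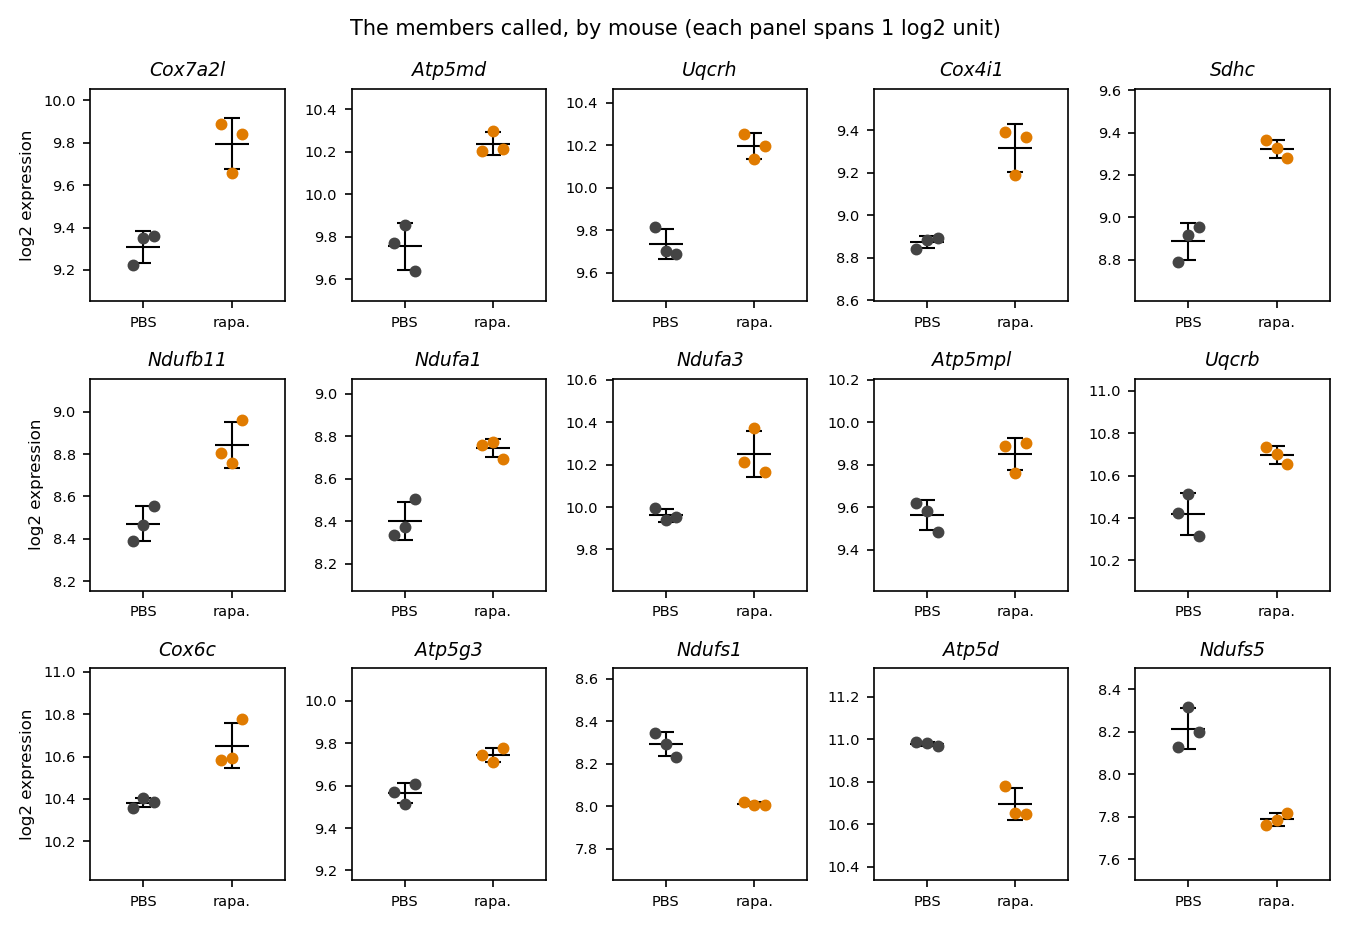
Log2 expression of the 15 members called, 1 panel per gene and 1 point per mouse (3 PBS in grey, 3 rapamycin in orange), with the mean and SD of each group in black. Each panel spans 1 log2 unit, and in all 15 the groups do not overlap; the first 12 panels rose with rapamycin and Ndufs1, Atp5d and Ndufs5 fell.

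Complex IV held 3 members that rose and 0 that fell of 17 tested (17.6% called, against 11.3% of all genes tested). Cox7a2l, a relative of Cox7a2 that was counted with complex IV by its symbol, had the largest change of any member. It stood at 9.22, 9.35 and 9.36 with PBS and at 9.89, 9.66 and 9.84 with rapamycin, a rise of 0.49 ± 0.07 (limma adjusted p 0.0109). Cox4i1, the common form of the subunit through which ATP and ADP are known to tune the enzyme, stood at 8.84, 8.88 and 8.89 with PBS and at 9.39, 9.19 and 9.37 with rapamycin, a rise of 0.44 ± 0.06 (limma adjusted p 0.00933). Cox6c, a small membrane subunit, went from 10.38 ± 0.02 to 10.65 ± 0.11, a rise of 0.27 ± 0.06 (adjusted p 0.0365 with limma). In Cox7a2l and Cox4i1, rapamycin replicate 2 was the lowest of its group and still above every PBS mouse.

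Of the 11 complex IV members that most tissues express, 10 were positive and 8 lay wholly above the PBS group (12.6% of all genes tested did), with a median of 0.14. This division of complex IV, like those of the other complexes by role, was made after the values were seen, and it is a description. Cox5a stood at 8.90 ± 0.11 with PBS and at 9.14 ± 0.11 with rapamycin with no overlap, and its difference of 0.24 ± 0.08 did not pass the test (limma adjusted p 0.0825). It was called with the array medians aligned (adjusted p 0.0486). Cox6a1 differed by 0.14 ± 0.05 and Cox7a2 by 0.13 ± 0.05, Cox6b1 by 0.07 ± 0.05, Ndufa4 by 0.04 ± 0.05 and Cox8a by -0.03 ± 0.04, none of them called. Of the 8 forms known mainly from muscle, testis, lung or hypoxic cells, Cox7b2 (3.88) and Cox8b (4.46) lay below the threshold of 4.72 and were not tested. None of the 6 tested was called, and 1 had an unadjusted p under 0.05: Cox4i2 differed by 0.11 ± 0.05, Cox6a2 by 0.13 ± 0.06, Cox6b2 by -0.19 ± 0.09, Cox7a1 by -0.05 ± 0.04, Cox8c by 0.15 ± 0.06 and Ndufa4l2 by 0.01 ± 0.11. Thus for the pair Cox4i1 and Cox4i2 the common form rose and the lung form, at 6.07 ± 0.08 with PBS, did not pass the test; the difference between the pair was not tested.

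In complex V, 3 of 17 subunits rose and 1 fell (23.5% called, against 11.3% of all genes tested). Atp5md, a small membrane subunit (also called DAPIT) at the interface between paired ATP synthases, stood at 9.77, 9.86 and 9.64 with PBS and at 10.20, 10.30 and 10.21 with rapamycin. It rose by 0.48 ± 0.07 (limma adjusted p 0.00876), and was the one member called in each of the 6 fits that left out an array. Atp5mpl, another small membrane subunit, went from 9.56 ± 0.07 to 9.85 ± 0.08, a rise of 0.29 ± 0.06 (limma adjusted p 0.0266). The 5 small membrane subunits, Atp5md, Atp5mpl, Atp5k, Atp5l and Atp5j2, a division made after the values were seen, all lay wholly above the PBS group (12.6% of all genes tested did), with a median of 0.29, and 2 of them were called. For Atp5k the gap was between 7.0474 and 7.0447. Atp5k differed by 0.29 ± 0.09 (limma adjusted p 0.0858) and Atp5l by 0.19 ± 0.08 (adjusted p 0.155 with limma). The 6 probe sets of Atp5l differed by 0.19 to 0.31.

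In the head of the ATP synthase 1 of 5 subunits fell (20.0%, against 6.92% of all genes tested), 0 rose and 4 of 5 changes were negative. Atp5d, the delta subunit of the central stalk, stood at 10.99, 10.98 and 10.97 with PBS and at 10.78, 10.65 and 10.65 with rapamycin. It fell by 0.28 ± 0.05 (limma adjusted p 0.0181). The catalytic Atp5b and its partner Atp5a1 differed by -0.04 ± 0.04 and -0.13 ± 0.05 and were not called, though in both every rapamycin mouse lay below every PBS mouse. Atp5b stood at 11.60 ± 0.03 with PBS and had rapamycin values of 11.55 in all 3 mice. Of the 3 genes of the ring-forming c subunit, which encode the same mature protein, Atp5g3 rose, from 9.56 ± 0.05 to 9.74 ± 0.03. Its change was 0.18 ± 0.05, with an adjusted p of 0.0488 in limma. Atp5g1 differed by 0.07 ± 0.05 and Atp5g2 by -0.07 ± 0.06. The call of Atp5g3 lay close to the threshold and was lost without a brightness filter (adjusted p 0.0533), after quantile normalization again (0.0756), with the replicate number as a block (0.0664) and in each of the 6 fits without an array.

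Members with several probe sets allow a check within the arrays. Of 19 such members, 14 had all probe sets on the same side of 0. The 5 of these that were called all had the same sign on every probe set: the other probe sets of Atp5md gave 0.45 and 0.37, that of Cox6c 0.36, that of Cox7a2l 0.47, that of Ndufb11 0.31 and those of Uqcrb 0.24 and 0.17. In a limma fit of all probe sets, those of Cox7a2l (adjusted p 0.0596) and Ndufb11 (0.0535) and the dimmest of Uqcrb (0.114) did not pass. Small subunits of the chain have processed pseudogenes with near-identical sequence, so a probe set can hold signal from several loci, and the loci behind these probe sets were not used here. Ndufa11 gave -0.16 on its brighter and 0.07 on its other probe set, neither called.

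The 11 assembly factors among the members, which help to build complexes I and II and are not part of them, had a median change of -0.04 over the 9 tested. Ndufaf5 (4.72) and Ndufaf6 (4.11) lay below the brightness threshold. None of these 9 was called by limma, and 2 had an unadjusted p under 0.05. The lowest was Sdhaf1, which serves the iron-sulfur subunit of complex II, at -0.28 ± 0.08 (limma adjusted p 0.0725), with every rapamycin mouse below every PBS mouse. Of 30 tested assembly factors outside these prefixes, such as Cox10, Surf1 and Bcs1l, 0 were called by limma, 9 had an unadjusted p under 0.05 (28.2% of all genes did) and 23 were negative (7767 of all 13965 genes were), with a median of -0.08.

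Other lists of mitochondrial genes are read against the 6.92% of all genes called lower and the 4.42% called higher. Of 17 genes of the TCA cycle and pyruvate dehydrogenase tested, 5 fell (29.4%) and 0 rose, with a median of -0.10. Pyruvate dehydrogenase, which feeds the cycle with acetyl groups, had 3 of these. Pdha1 stood at 9.51, 9.42 and 9.48 with PBS and at 9.10, 9.16 and 9.11 with rapamycin, a log2 change of -0.35 ± 0.05 (limma adjusted p 0.00819). Pdhb fell by 0.50 ± 0.07 and Dlat by 0.33 ± 0.05 (limma adjusted p 0.00937 and 0.0127). The others were Idh3a, a subunit of the NAD-dependent isocitrate dehydrogenase (-0.34 ± 0.07), and Suclg2, of succinyl-CoA ligase (-0.32 ± 0.08). The count of 5 came to 1 (Pdha1) in the fit lacking PBS replicate 2, to 2 in that lacking rapamycin replicate 1 and to 3 in each of the other 4. Idh3a was called in 0 and Suclg2 in 1 of these 6 fits.

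Of 8 genes that deliver electrons to coenzyme Q by other routes, 2 fell (25.0%) and 0 rose: Etfdh, which passes on electrons from fatty acid oxidation, changed by -0.38 ± 0.06, and the choline dehydrogenase Chdh by -0.42 ± 0.11. Of 11 genes of coenzyme Q synthesis 2 fell (18.2%), Pdss2 by 0.45 ± 0.07 and Coq7 by 0.31 ± 0.08. Of 14 regulators of mitochondrial transcription and biogenesis, Gabpa fell (7.1%, close to the share of all genes) and 0 rose. It stood at 8.81, 8.75 and 8.61 with PBS and at 8.36, 8.32 and 8.40 with rapamycin, a change of -0.36 ± 0.06 (limma adjusted p 0.0155). Nrf1 differed by -0.09 ± 0.06 with overlapping groups, and Ppargc1a, at 4.39 with PBS, was too dim to test. Of 8 genes of adenine nucleotide and phosphate exchange, 1 fell (12.5%), the outer membrane channel Vdac2, by 0.22 ± 0.05. Vdac2 and 1 gene each of coenzyme Q synthesis (Coq7) and of electron entry (Chdh) were not called under some other settings, and in the fit lacking PBS replicate 2 these 4 lists held 0 calls. Of the 6 fits that lacked an array, Gabpa and Pdss2 were called in 3, Etfdh in 2, Chdh and Vdac2 in 1 and Coq7 in 0.

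**Figure D4:**
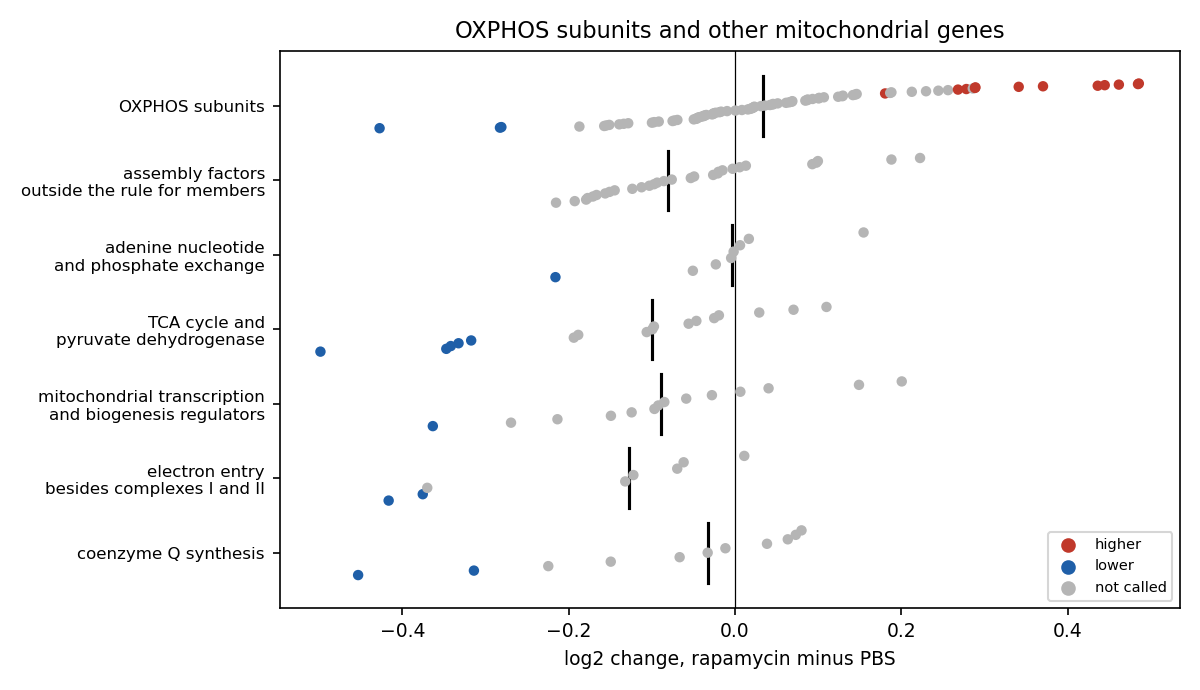
Log2 change (rapamycin minus PBS) of the tested OXPHOS subunits with cytochrome c (top line) and of 6 other lists of mitochondrial genes, 1 point per gene, with red and blue for those that passed the test and a bar for each list's median. The subunits reach from -0.43 to 0.49 with 12 of 15 calls on the higher side, while all calls in the other lists lie below 0.

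Markers of cell types moved in part with the treatment, and their part in the results above was not tested. Of all genes tested, 4.42% were called higher and 6.92% lower. Of 12 neutrophil markers limma called 0, with 0 at an unadjusted p under 0.05, and their summed linear signal ran from 83094 to 87771 with PBS and from 78353 to 85377 with rapamycin. Of 11 macrophage markers 2 rose (Cd68 and Hmox1), 1 fell (Slc40a1) and 8 were not called, Adgre1, C1qa and C1qb among them. Of the 11, 9 were positive, with a median log2 change of 0.22. The groups did not overlap for 4 above and 1 below (12.6% and 19.4% of all genes tested). Those above include C1qc (0.47 ± 0.18) and Mertk (0.40 ± 0.13), neither called. The summed signal of the 11, which includes Cd68 and Hmox1, was 6235 to 8391 with PBS and 9251 to 9474 with rapamycin. Of 7 monocyte markers 2 rose (Cd14 and Ms4a6c) and 1 fell (Ccr2), with 5802 to 6148 and 5945 to 6722. Of 8 tested T cell markers 3 fell, and the summed signal of the 9 measured was 454 to 505 with PBS and 369 to 401 with rapamycin. Of 7 tested erythroid markers Slc4a1 rose, with sums over the list of 362 to 371 and 393 to 428. B cell and eosinophil markers were mostly too dim to test (5 of 7 and 3 of 5), Ms4a1, Pax5 and Cd79a among them. Of the 2 B cell markers tested, Cd79b fell by 0.32 ± 0.06 (limma adjusted p 0.0191) and Blk was not called. Neither of the eosinophil markers tested was called.

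Across the 91 members, the log2 change had a Spearman correlation of 0.11 with the gene's mean level and of -0.20 with the length of the gene in the genome, against 0.00 and -0.02 over all genes. These are correlations across genes that share the same 6 arrays, given as a description.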

How the data were processed

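RNA of sorted splenic cells was read on 1 array per mouse in 6 mice. The authors' deposited values are log2 expression per probe set, made with RMA in Affymetrix Expression Console per the submitters' processing notes, with versions and genome build that the sources used here do not state. RMA makes the arrays' distributions nearly equal, so most of a shift shared by most genes would be removed. A small offset remained: the array medians over the genes tested were 6.7800 to 6.8018 with PBS and 6.7315 to 6.7754 with rapamycin. The values ran from 2.71 to 14.22. Arrays have no depth, and their number limits the precision. Of 35556 probe sets, 21789 had 1 gene symbol in the platform annotation of 2016. For each of 19938 genes the probe set with the highest mean was taken. Genes with a mean below the 30th percentile (log2 4.72) were not tested, which left 13965.

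The 2 groups entered a linear model in limma 3.58.1 (R 4.3.3; lmFit and eBayes, 2-sided) with Benjamini-Hochberg adjustment over all genes tested, and called at an adjusted p under 0.05. Errors of changes are moderated standard errors. On simulated data with 13965 genes and independent normal noise, the fit recovered 26 of 50 genes changed by 0.3 and 50 of 50 at 0.6, with 9 false among 185 calls. The simulation changed 50 genes at each of 0.3, 0.6, 1 and 2, fewer in all than the 1584 called in the data. The adjusted p depends on how many genes change, so these recoveries need not hold for the data. The members, lists and the rule for named genes were chosen with earlier results of these data known: the rule took the members called, landmark subunits, isoform pairs, called assembly factors and up to 4 called genes of each other list. Any other gene named was picked with its values in view. Alternative settings were no filter or one at the 50th percentile, repeated quantile normalization, aligned array medians, mean of a gene's probe sets, intensity trend with robust estimation, array weights, fits lacking 1 array, and a block for the replicate number. Counting Ndufa4 and Ndufa4l2 with complex I was added after seeing the data, as was the use of the core of the NRF1 site in place of a longer form. Figures were drawn with matplotlib 3.10.9.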

Additional observations from a re-analysis of the deposited data

How the results depend on the processing

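Under the 8 alternatives that kept all arrays, 14 of the 15 members called stayed called (Atp5g3 was the exception), and members gave 11 to 14 higher and 3 to 4 lower. Their median log2 change of 0.0311 was 0.0628 with aligned array medians. Complex II gave 2 calls after repeated quantile normalization in place of 1. Other assembly factors gave 1 call with the filter at the 50th percentile in place of 0. Exchange genes gave 0 with aligned medians or the replicate block in place of 1, electron entry genes 1 without a filter or with aligned medians in place of 2, and coenzyme Q synthesis 1 without a filter or with the replicate block in place of 2. The cause of these changes was not tested. The dim probe set of Cycs reversed it at -0.36. Leaving out 1 array, in fits with fewer samples, gave 113 to 1336 genes called, 1 to 10 members higher and 0 to 5 lower. The ranges were 0 to 6 calls for complex I, 0 to 1 for complexes II and III, 0 to 3 for complex IV and 1 to 3 for complex V, with member medians of 0.0236 to 0.0565. For the other lists they were 1 to 3 for the TCA cycle, 0 to 2 for regulators and for electron entry, and 0 to 1 for exchange, coenzyme Q synthesis and other assembly factors. Without 1 array, Atp5md stayed called in all 6 fits, the other 14 members in none to 5. Sign changes between fits occurred 11 times among the named genes, each with no call in either fit. With the replicate block 1691 genes were called, with 13 members higher and 3 lower, Cox5a (adjusted p 0.0296) and Cycs (0.0384) among them. The numbers were not taken to pair the mice: the deviations of same-numbered mice correlated at 0.26, 0.01 and 0.05, and 2 of 6 samples correlated best with their own number.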
